A study of Mus musculus with 6 samples.

Results

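NF-kB is a small family of transcription factors, and the 10 genes described here encode its 5 subunits, 4 inhibitors of the IkB family, and the ubiquitin-editing enzyme A20. The members were taken by gene symbol from the deposited table: Nfkb1, Nfkb2, Rel, Rela and Relb for the subunits, Nfkbia, Nfkbib, Nfkbie and Nfkbiz for the inhibitors, and Tnfaip3 for A20. Each symbol matched 1 of the 55421 rows, and all 10 passed the filter on low values, a mean above 1. The libraries came from microglia, the resident macrophages of the brain, sorted on CD45 and CD11b, and the C57BL/6 mice were 4 to 5 weeks old. In the WT group, the 3 libraries carried the genotype QKIfl/fl, in which the Qk gene of the RNA-binding protein QKI is flanked by loxP sites with no Cre listed. The 3 libraries labelled KO carried the same floxed alleles together with Cx3cr1cre-ert2, a Cre fused to an estrogen receptor domain and driven from the Cx3cr1 locus. Such a fusion acts after tamoxifen, and the labels give no tamoxifen dose or time. Both groups shared the floxed alleles, so WT and KO differ by the Cre allele itself and not by the intended QKI loss alone. The labels tie no library to an animal, so p-values measure the spread between these libraries, which may be technical.

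In resting cells, NF-kB dimers are held in the cytoplasm by IkB proteins. Signals from receptors such as the Toll-like receptors, the interleukin 1 receptor and the TNF receptors activate the IkB kinase (IKK), which marks IkB for destruction and frees the dimers to enter the nucleus. Several inhibitor genes, Nfkbia and Tnfaip3 among them, are themselves induced by NF-kB and close a negative feedback loop. In microglia this pathway drives the transcription of cytokine and chemokine genes.

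The labels were checked on the targeted gene. Qk, rather than being lower, was 2.13-fold higher under the KO label (11632 ± 800 normalised reads in WT and 24768 ± 1073 in KO, SD, n = 3 each), and Cx3cr1, the locus of the Cre, was 4.22-fold lower. The value, given for 1 transcript per gene, does not show whether a floxed exon was lost, and every direction given compares libraries with the KO label to libraries with the WT label. Values are normalised reads: read counts that the authors scaled so that each library sums to about the same total. Behind them stand 56988261 to 77199936 recovered reads per library, and 1547 to 180000 for a member in a library. Library letters are those of the deposited columns. Over 22472 tested genes, 2529 were higher and 5252 lower at an adjusted p under 0.05 (limma), and the median of all log2 fold changes was -0.15. Trimmed-mean (TMM) factors gave 3462 and 3368 and a median of -0.02, so changes of the size of that shift depend on the scaling. All 10 markers of microglia were tested, with a summed level of 1426900 to 1485960 normalised reads in WT and 835965 to 947246 in KO. Library WT C held the highest WT sums of neutrophil, oligodendrocyte, astrocyte and endothelial markers. These are bulk samples, in which fewer cells of a type and less RNA per cell cannot be told apart.

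The genes of inhibitors and of A20 rose, led by Nfkbiz, Tnfaip3 and Nfkbia, and of the subunit genes Nfkb2, Relb and Rel rose while Rela and Nfkb1 did not pass. Of the 10 members, 8 were higher and 0 lower at an adjusted p under 0.05 (limma, Benjamini-Hochberg over all tested genes), where 11.3% of all tested genes were called higher and 23.4% lower. The median log2 fold change of the members was 0.85, against -0.15 over all tested genes. With TMM factors 9 of the members were higher, with Nfkb1 added, against 15.4% of all tested genes. WT and KO ranges were apart for 8 of the 10 members, Rel and Rela being the exceptions, and for 15.7% of all tested genes in the higher direction. Without KO B, which held the highest KO value of 8 of the 10 members, 7 were called higher, against 9.91% of all tested genes. Without both WT C and KO B, an alternative added once the data had been seen, 6 were called higher, against 9.61%. Of the 10 members, 8 had an adjusted p under 0.05 in the authors' deposited table, with Nfkb1 among them and Rel not (adjusted p = 0.0737 there). Of all its 55421 rows 11.4% did, a share that also counts the rows left out here by the filter on low values. With DESeq2 on the recovered reads 8 members were called, all higher. Of the 22472 tested genes 31.5% were called that way in either direction, and 15.7% were called higher. The authors' deposited table marks 503 genes with an absolute log2 fold change over 1.5, and these include Nfkbiz and Tnfaip3.

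**Figure D1:**
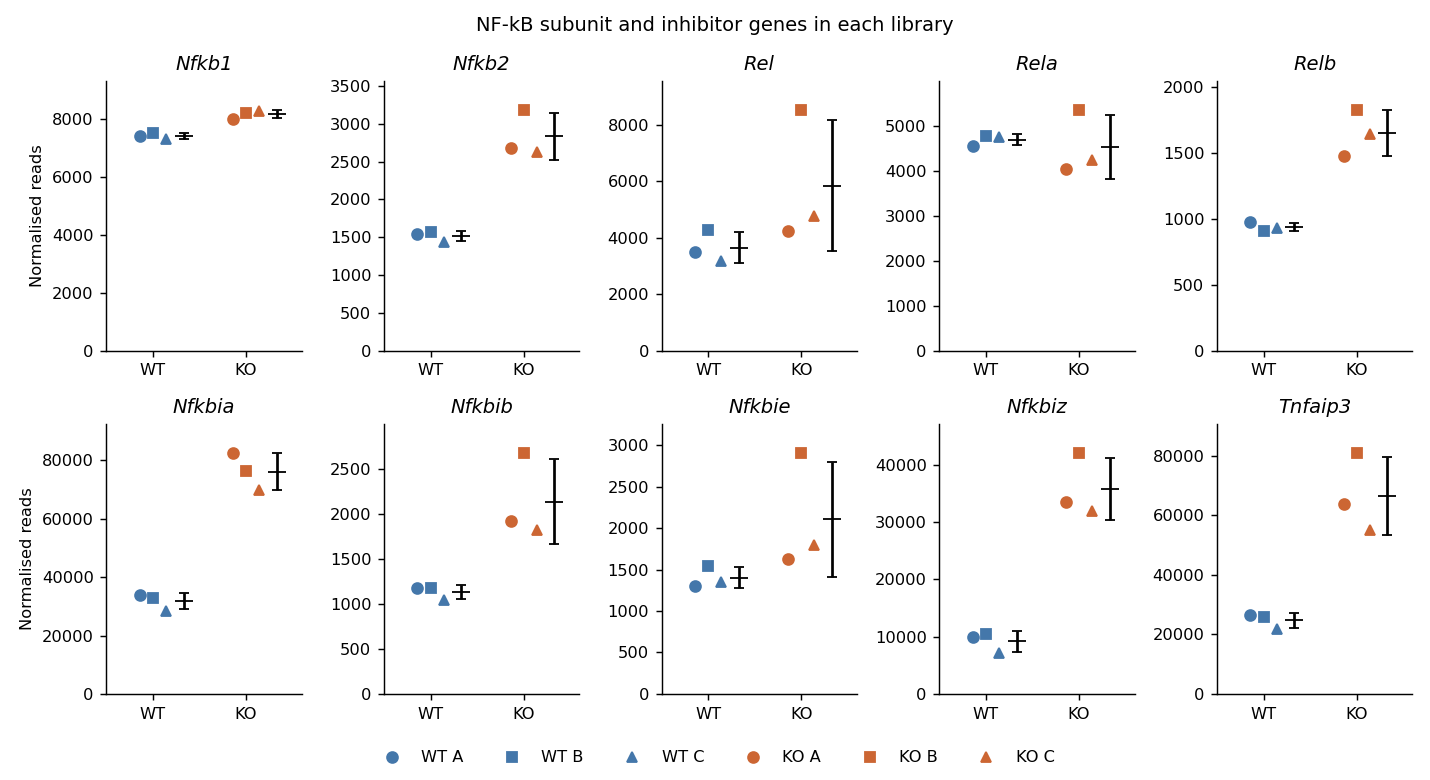
Normalised reads of each of the 10 genes in each library (linear axes from 0). Blue marks are WT and orange marks KO, with circle, square and triangle for letters A, B and C, and the black bar is the mean with its SD (n = 3). Nfkbia, Nfkbiz and Tnfaip3 stand clear of the WT libraries in all KO libraries, while the KO B square lies far above KO A and KO C for Rel and Nfkbie.

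The region upstream of the start site was read for the members because NF-kB binds a known DNA motif of 10 bases, the kB consensus. RefSeq promoter windows (GRCm38.p6) matched 7 of the 10 members; Nfkb1, Relb and Nfkbiz have no entry. The 250 bases before each RefSeq start were searched on both strands. The consensus was taken as GGG, a purine, any base at the next 2 places, 2 pyrimidines and CC. A match to the kB consensus was found for 5 of the 7 members, Nfkb2, Rel, Nfkbia, Nfkbie and Tnfaip3, and for 8.23% of all 27025 genes with a window. Rela and Nfkbib had no match to the consensus in this window, which says only that those letters are not there. The windows of 3 members called higher are shown whole; capitals mark the matches, and each runs 5′ to 3′ on the strand of its gene. They lie at chr12:55492648-55492897 (minus strand) for Nfkbia, chr17:45555450-45555699 (plus strand) for Nfkbie and chr11:23770970-23771219 (minus strand) for Rel.
Nfkbia: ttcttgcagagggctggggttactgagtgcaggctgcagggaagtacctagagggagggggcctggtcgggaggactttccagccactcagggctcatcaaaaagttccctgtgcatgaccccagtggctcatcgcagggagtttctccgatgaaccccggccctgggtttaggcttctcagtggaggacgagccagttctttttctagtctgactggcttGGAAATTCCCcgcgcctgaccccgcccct
Nfkbie: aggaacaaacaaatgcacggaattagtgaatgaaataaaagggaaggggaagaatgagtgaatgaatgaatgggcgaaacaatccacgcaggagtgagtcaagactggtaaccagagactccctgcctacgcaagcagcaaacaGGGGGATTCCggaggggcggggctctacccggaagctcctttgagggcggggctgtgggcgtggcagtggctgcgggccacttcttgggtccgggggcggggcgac
Rel: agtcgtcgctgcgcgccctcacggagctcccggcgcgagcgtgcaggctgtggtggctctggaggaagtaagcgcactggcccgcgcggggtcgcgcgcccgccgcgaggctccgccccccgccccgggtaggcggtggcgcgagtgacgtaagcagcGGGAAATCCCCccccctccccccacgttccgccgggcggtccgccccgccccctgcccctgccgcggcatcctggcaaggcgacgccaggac
The Nfkbia match, read as GGAAATTCCC, ends 19 bases before the start site, and the Nfkbie match, GGGGGATTCC, ends 96 bases before it. In Rel, GGGAAATCCC and the overlapping GGAAATCCCC end 82 and 81 bases before the start. For Tnfaip3 the matches are GGGACACCCC and GGAAATCCCC, ending 115 and 2 bases before the start. Nfkb2 has matches in all 3 of its windows, with GGGAATTCCC and GGGGCTTTCC in the most upstream one. These Nfkb2 windows lie 3′ of the start of the transcript listed for that gene, whose start is 417 to 1610 bases before the RefSeq starts, and 167 to 250 of their bases lie in annotated exons. A match is a description of letters and no measurement of binding; binding was not analysed here.

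Nfkbia encodes IkB alpha, the inhibitor that is destroyed and resynthesised within each round of signalling. It lies on chromosome 12 at 55489410 to 55492647 (GRCm38, minus strand). Its level was 33775, 32961 and 28519 normalised reads in WT A, B and C and 82450, 76217 and 69718 in KO A, B and C. The groups lay far apart, and WT C and KO C were the lowest of their groups. The gene was 2.40-fold higher, a log2 difference of 1.26 (limma, SE 0.10, adjusted p = 4.64e-06).

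Nfkbiz encodes IkB zeta, an atypical nuclear member of the IkB family that takes part in transcription of a subset of NF-kB target genes. It lies on chromosome 16 at 55811378 to 55838854 (minus strand). WT A, WT B and WT C held 9943, 10458 and 7145 normalised reads, and KO A, KO B and KO C held 33480, 42038 and 31867. The lowest KO library lay well above the highest WT library. This was the largest change among the 10 members, 3.90-fold or 1.97 on the log2 scale (limma, SE 0.15, adjusted p = 3.6e-06).

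Tnfaip3 encodes A20, which edits ubiquitin chains on signalling proteins upstream of IKK and so restrains the pathway. It lies on chromosome 10 at 19000929 to 19015376 (minus strand). It had 26496, 25703 and 21921 normalised reads in WT A, B and C and 63736, 80865 and 54931 in KO A, B and C. All KO libraries were above all WT libraries, with KO B the highest. The rise was 2.69-fold or 1.42 on the log2 scale (limma, SE 0.13, adjusted p = 2.11e-05).

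Nfkbib and Nfkbie encode IkB beta and IkB epsilon, which like IkB alpha hold dimers in the cytoplasm. Nfkbib, on chromosome 7 at 28758251 to 28766640 (minus strand), had 1180, 1181 and 1043 normalised reads in WT A, B and C and 1917, 2676 and 1822 in KO A, B and C. Its groups did not overlap, and the log2 fold change was 0.89 (SE 0.13, adjusted p = 0.000471, limma). Nfkbib shares 314 of its exon bases with Ccer2 on the opposite strand, a gene of 9.04 to 48.8 normalised reads; the sources used here do not give whether counting used strand, so reads there cannot be told apart.

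Nfkbie, on chromosome 17 at 45555739 to 45563166 (plus strand), had 1304, 1546 and 1355 normalised reads in WT and 1624, 2904 and 1794 in KO, in the order A, B and C. KO A lay just above WT B, and KO B stood apart from both other KO libraries. The log2 fold change of Nfkbie was 0.54 (SE 0.18, adjusted p = 0.0372, limma). It was 0.29 without KO B (adjusted p = 0.0482), and the call was lost without WT A (adjusted p = 0.0987), without WT C (adjusted p = 0.0861) and without both WT C and KO B (adjusted p = 0.104), all by limma. With the letter as a block the same 0.54 had an SE of 0.10 (adjusted p = 0.00205, limma). The labels do not pair libraries by letter, and that pairing was inferred from these same data.

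Nfkb2 and Relb encode p100, the precursor of p52, and RelB, the pair of the non-canonical branch. Nfkb2, on chromosome 19 at 46304320 to 46312385 (plus strand), had 1543, 1570 and 1440 normalised reads in WT A, B and C and 2682, 3184 and 2634 in KO A, B and C. It was 1.87-fold higher, a log2 difference of 0.90 (limma, SE 0.09, adjusted p = 2.64e-05). Nfkb2 shares 299 exon bases with Psd on the opposite strand, which had 198 to 402 normalised reads and was highest in KO B, and 501 with the antisense AC114539.1, which was not analysed here. Relb, on chromosome 7 at 19606217 to 19629438 (minus strand), had 973, 909 and 933 normalised reads in WT and 1477, 1826 and 1642 in KO, in the order A, B and C. The groups of both genes did not overlap. The log2 fold change of Relb was 0.81 (SE 0.09, adjusted p = 6.7e-05, limma).

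Rel encodes c-Rel, a subunit of lymphoid and myeloid cells. It lies on chromosome 11 at 23736847 to 23770970 (minus strand). Its level was 3492, 4267 and 3195 normalised reads in WT A, B and C and 4250, 8537 and 4782 in KO A, B and C. KO A lay just below WT B, so the groups overlapped, and KO B stood far above every other library. The log2 fold change of 0.62 (SE 0.22) passed narrowly (adjusted p = 0.046, limma). It was 0.31 without KO B (adjusted p = 0.0773), and the call was also lost without WT A, WT C or KO C (adjusted p = 0.101, 0.129 and 0.054) and without both WT C and KO B (0.22, adjusted p = 0.184), all by limma. With DESeq2 on the recovered reads Rel had 0.82 and did not pass (adjusted p = 0.0775). For each letter the KO library held more Rel than the WT library of that letter, but the labels do not pair libraries. With the letter as a block, a pairing inferred from these same data, the same 0.62 had an SE of 0.11 (adjusted p = 0.00133, limma).

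Rela and Nfkb1 encode p65 and p105, the precursor of p50; p65 and p50 form the main dimer of the canonical branch. Rela, on chromosome 19 at 5637483 to 5648130 (plus strand), had 4552, 4779 and 4750 normalised reads in WT A, B and C and 4035, 5357 and 4235 in KO A, B and C. KO A and KO C lay below every WT library and KO B above, so the groups overlapped. The log2 fold change of Rela was -0.06 (95% interval -0.28 to 0.16, adjusted p = 0.696, limma). It was 0.08 with TMM factors and -0.18 without KO B, and it passed under none of the 17 alternatives run.

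Nfkb1, on chromosome 3 at 135584655 to 135691546 (minus strand), had 7435, 7520 and 7315 normalised reads in WT and 8019, 8215 and 8308 in KO, in the order A, B and C. Its groups were narrow and did not overlap. The log2 fold change of Nfkb1 was 0.14 (SE 0.06, adjusted p = 0.109, limma). Its 95% interval, not adjusted for the number of genes, was 0.002 to 0.28. It was 0.28 with TMM factors (adjusted p = 0.00923, limma). With the column letter as a block the value of 0.14 passed (adjusted p = 0.0451, limma). The call for Nfkb1 thus depends on the scaling and on a pairing that the labels do not give.

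**Figure D2:**
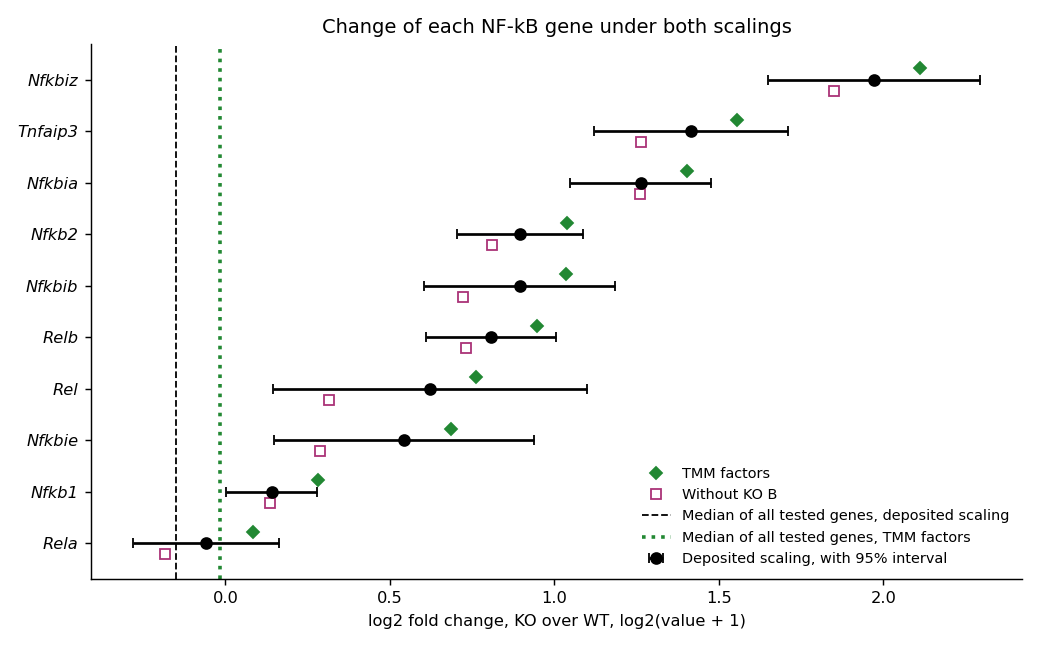
Log2 fold change of each of the 10 genes, KO over WT, on the log2(value + 1) scale: black points with 95% intervals for the deposited scaling, green diamonds with TMM factors, open squares without library KO B. Dashed and dotted lines are the medians of all tested genes (-0.15 and -0.02). Nfkbiz, Tnfaip3 and Nfkbia lead, Rel and Nfkbie have the widest intervals, and Rela lies by the lines.

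Levels between genes were compared per length, as normalised reads per kb of the transcript length in the deposited table. In WT, Nfkbia was the most abundant member at 20263 ± 1805 normalised reads per kb (SD, n = 3), followed by Tnfaip3 at 3994 ± 395 and Nfkbiz at 2273 ± 441. The canonical subunits came next, Nfkb1 at 1825 ± 25.4 and Rela at 1742 ± 45.7. Nfkbib (554 ± 38.8), Rel (490 ± 74.3), Nfkbie (468 ± 42.7), Nfkb2 (399 ± 18.1) and Relb (289 ± 10.1) were lower, in that order. The ranges of neighbours overlapped in WT between Nfkbiz and Nfkb1, between Nfkbib and Rel and between Rel and Nfkbie, so those places are not resolved.

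In KO the top 7 genes per length were in the same order: Nfkbia at 48582 ± 4063 normalised reads per kb (SD, n = 3), Tnfaip3 at 10752 ± 2132, Nfkbiz at 8860 ± 1353, Nfkb1 at 2011 ± 36.3, Rela at 1685 ± 265, Nfkbib at 1044 ± 228 and Rel at 786 ± 314. Nfkb2 (745 ± 80.1), Nfkbie (703 ± 232) and Relb (507 ± 53.7) followed. Most neighbours in KO overlapped, the exceptions being Nfkbia over Tnfaip3, Nfkbiz over Nfkb1 and Rela over Nfkbib. Nfkbiz overlapped with Nfkb1 in WT and stood clear of it in KO.

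**Figure D3:**
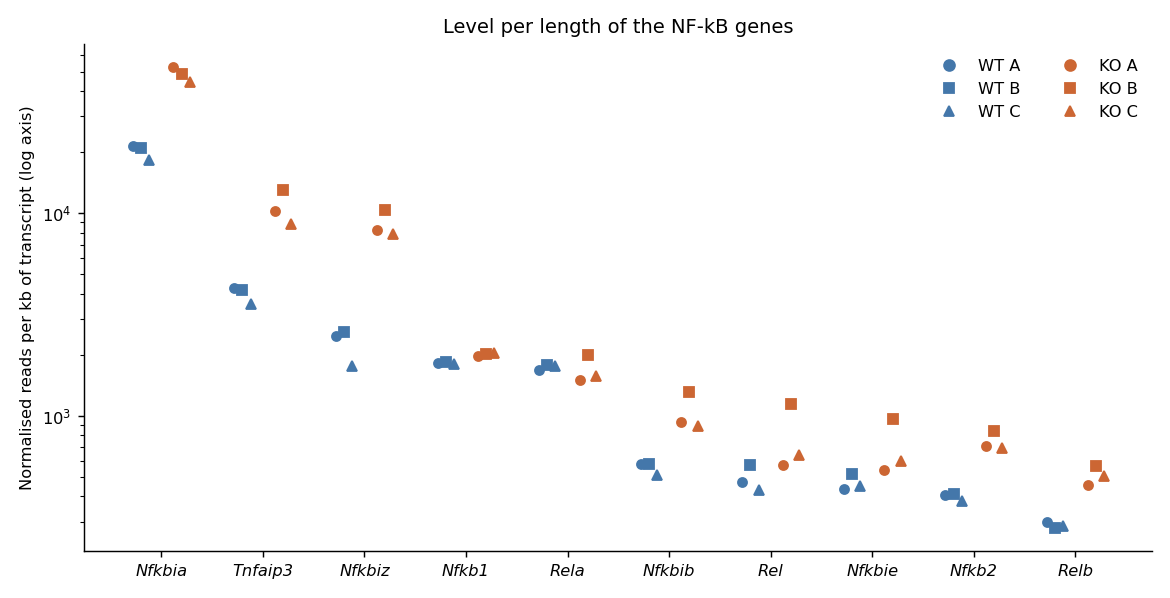
Normalised reads per kb of transcript for each gene and library on a log axis, genes ordered by their WT mean; blue is WT, orange KO, and symbols give the column letter. Nfkbia is the highest member in both groups and Relb the lowest by group mean, and the KO points of Nfkbia, Tnfaip3 and Nfkbiz lie above their WT points while those of Rela overlap them.

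Ratios between members within a library do not depend on how libraries were scaled to each other, and a difference in a ratio shows unequal change, not which gene changed. For 8 ratios the 3 KO libraries were compared with the 3 WT libraries by a two-sided exact permutation test, which cannot go below p = 0.1 with 3 against 3. The ratio of Nfkbia to Rela was 7.42, 6.90 and 6.00 in WT A, B and C and 20.4, 14.2 and 16.5 in KO A, B and C. Inhibitor message was thus higher against p65 message in each KO library, by 1.32 on the log2 scale (exact p = 0.1, adjusted p = 0.133). Relb to Rela went from 0.200 ± 0.0123 to 0.365 ± 0.0236 and Nfkb2 to Nfkb1 from 0.204 ± 0.00656 to 0.346 ± 0.0368 (SD, n = 3 each; exact p = 0.1 for both). Rel to Rela was 0.767, 0.893 and 0.673 in WT and 1.05, 1.59 and 1.13 in KO, in the order A, B and C. So for Rel the groups, which overlapped as levels, did not overlap as a ratio to Rela (log2 difference 0.68, and 0.50 without KO B; exact p = 0.1).

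The inhibitors also differed against each other. Nfkbiz to Nfkbia went from 0.287 ± 0.0339 to 0.472 ± 0.0738 and Nfkbie to Nfkbia from 0.0443 ± 0.00498 to 0.0278 ± 0.00938 (SD, n = 3 each), without overlap in either case (exact p = 0.1). For Nfkbie to Nfkbia the groups were only just apart, with KO B at 0.0381 and WT A at 0.0386. Nfkbib to Nfkbia was 0.0349 to 0.0366 in WT and 0.0233 to 0.0351 in KO, with overlap between groups (exact p = 0.2), and was lower in KO than in WT for each letter. Tnfaip3 to Nfkbia was 0.784, 0.780 and 0.769 in WT and 0.773, 1.06 and 0.788 in KO, in the order A, B and C (exact p = 0.4). In KO A and KO C this last ratio lay close to the WT libraries, and KO B alone was far higher: the log2 difference was 0.15 with all libraries and 0.01 without KO B. After adjustment over the 8 ratios the smallest p was 0.133, and with 3 against 3 none could go below 0.1.

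**Figure D4:**
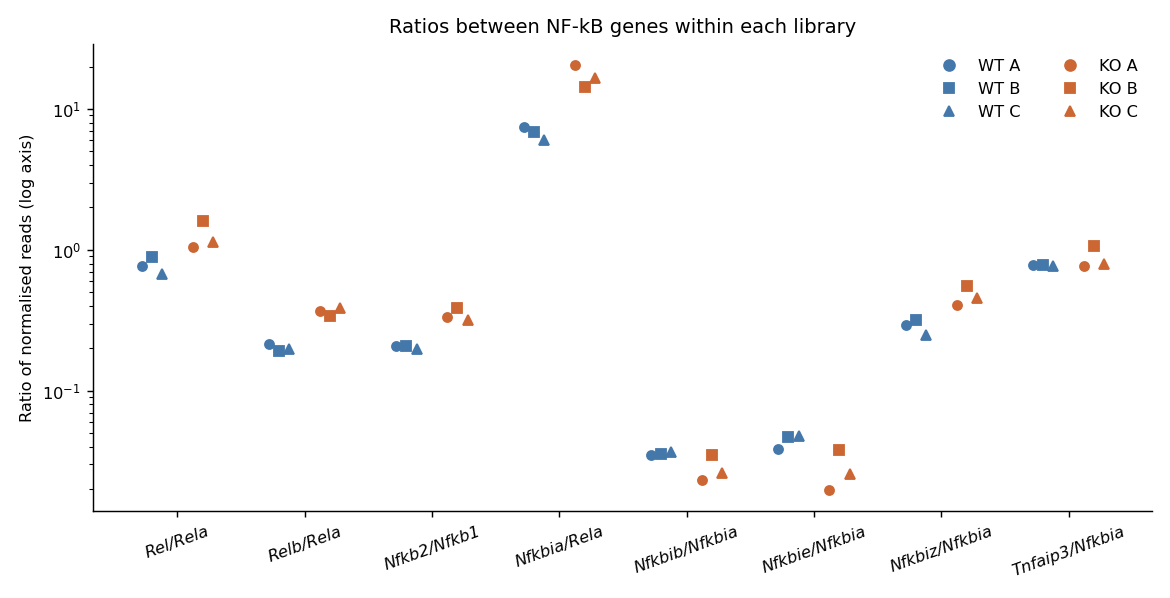
Ratio of normalised reads of 1 member to another in each library, on a log axis; blue is WT, orange KO, symbols give the column letter. Nfkbia against Rela, and Nfkb2, Relb and Rel against the canonical subunits, are higher in each KO library, whereas Tnfaip3 against Nfkbia is alike in WT and in KO A and KO C.

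The KO libraries differed among themselves in a way that several members shared. KO B held the highest KO value of 8 of the 10 members, and of 25.5% of the 11236 genes above the median level. Its value over the mean of KO A and KO C was 1.89 for Rel, 1.70 for Nfkbie, 1.43 for Nfkbib, 1.36 for Tnfaip3, 1.30 for Rela and 1.29 for Nfkbiz, against a median of 0.961 over those genes. Nfkb1, at 1.01, did not share it, and neither did Nfkbia. In WT, letter B was the highest for 7 of the 10 members, and for 25.9% of those genes, and WT C the lowest for 7 members and 24% of the genes.

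WT C also carried the highest neutrophil sum, 15703 normalised reads over 10 markers against 1747 and 5038 in WT B and WT A, and 50.9 to 107 in KO. Of the neutrophil markers 8 were tested and 7 of these were lower, where 23.4% of all tested genes were lower. Markers of other brain cells were lower too, with 8 of 8 for neurons, 7 of 8 for astrocytes, 6 of 8 for endothelial cells and 5 of 8 for oligodendrocytes, as were 7 of 10 for microglia. The sums were 168 to 293 in WT and 49.9 to 55.3 in KO for neurons, 6399 to 9401 and 2935 to 3802 for astrocytes, 2389 to 4066 and 1070 to 1251 for endothelial cells, and 8047 to 21274 and 5508 to 6338 for oligodendrocytes. Of 8 monocyte markers 1 was higher and 4 lower, with sums of 665 to 1867 and 802 to 1004. Markers of border-associated macrophages, 8 in all, had sums of 1143 to 1813 in WT and 2138 to 3589 in KO, and 4 were higher. The part of these cells in the member values was not tested. Leaving out WT C gave log2 fold changes for Nfkbia, Nfkbiz and Tnfaip3 of 1.19, 1.80 and 1.33. Rel and Nfkbie were then no longer called, and 6 members were higher (limma), against 10.3% of all tested genes. This step does not take the other cells out, since WT A and WT B still held neutrophil sums of 5038 and 1747. The 7 T cell markers summed to 16.5 to 33.9 normalised reads in WT and 19.4 to 26.3 in KO; Cd8a was listed at 0 in all libraries, and of the 2 tested 1, Lck, was lower. The 6 B cell markers summed to 853 to 954 in WT and 523 to 736 in KO, nearly all of it Cd79b (890 and 640 on average). Pax5 was listed at 0 in all libraries, and of the 3 B cell markers tested 2, Cd79b and Ebf1, were lower (limma), but none with TMM factors. These genes were chosen for naming after their values were seen.

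The genes whose profile over the 6 libraries was closest to that of Nfkbiz were sought among 11235 genes above the median level, by the root mean square difference of centred log2 values. These were Cd83, a surface marker of activated antigen-presenting cells (0.05 on the log2 scale), Tlr2, a receptor for bacterial lipoproteins (0.10), and Il1a, the interleukin 1 alpha gene (0.10). Cd83 had 38076, 43066 and 28797 normalised reads in WT and 126909, 171972 and 122746 in KO, in the order A, B and C. As for Nfkbiz, WT C was its lowest library and KO B its highest, a likeness by which Cd83 was picked. Of the other members Tnfaip3 came closest to Nfkbiz, at 0.30 and rank 100, and Nfkbia followed at 0.39 and rank 184. The distance takes in the gap between WT and KO, so a log2 fold change near that of Nfkbiz (1.97) lowers it. Those of Tnfaip3 and Nfkbia were 1.42 and 1.26, the next largest among the members.

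Other genes of the pathway were grouped by role from the receptor to the target. The lists were written from general knowledge with earlier results of these data known, so their counts are a description and no independent check. The counts below stand against 11.3% of all tested genes called higher and 23.4% lower, and with TMM factors against 15.4% and 15.0%. Of 18 receptors that signal to NF-kB, 6 were higher and 6 lower (33.3% in each direction, median log2 fold change -0.15, as for all tested genes); with TMM factors 6 were higher and 2 lower. Tlr2 had 6855 ± 651 normalised reads in WT and 28303 ± 4454 in KO (SD, n = 3 each), 2.04 higher on the log2 scale (limma, SE 0.11, adjusted p = 5.37e-07). Tlr6, whose protein pairs with that of Tlr2, went from 1731 ± 106 to 922 ± 86.8. Tnfrsf11a, the gene of the receptor RANK, went from 3536 ± 292 to 6416 ± 485.

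Of 21 adaptors and ubiquitin ligases 3 were higher and 3 lower (28.6% called, against 34.6% of all tested genes), and with TMM factors 7 and 2. Tirap, the adaptor that brings MyD88 to Toll-like receptors, was 1.98-fold lower, at 942 ± 18.4 normalised reads in WT and 477 ± 45.7 in KO (SD, n = 3 each). Rnf31, the catalytic subunit of the linear ubiquitin ligase, was 1.38-fold higher, and Malt1, a protease and scaffold of the CARD pathway, 1.29-fold lower.

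Of 11 kinases and their partners 1 was higher and 4 lower (median -0.09), but with TMM factors 1 and 1, and without WT B 1 and 2. The 9.09% called higher is close to the share over all tested genes. The gene called higher was Map3k8, of the kinase TPL2 that p105 holds inactive, which had 1567 ± 182 normalised reads in WT and 4166 ± 795 in KO (SD, n = 3 each), 1.40 higher on the log2 scale (limma, SE 0.13, adjusted p = 1.99e-05). Map3k7, the gene of the kinase TAK1, and Tab1, of its partner, had log2 fold changes of -0.33 and -0.51, and the call of Map3k7 was lost with TMM factors (adjusted p = 0.0507). The IKK subunit genes Ikbkb and Ikbkg, at 0.01 and -0.09, did not pass. Chuk, the third IKK subunit gene, at -0.26 (adjusted p = 0.0203, limma), was no longer called with TMM factors (adjusted p = 0.306). The IKK genes were chosen for naming after their values were seen.

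Among 19 other IkB proteins and brakes 5 were higher and 3 lower, with a median of 0.08, and with TMM factors 6 were higher and 0 lower. In all 42.1% were called, against 34.6% of all tested genes, and with TMM factors 31.6% against 30.4%. The share called in either direction was thus near that of all genes. The share called higher was 26.3% against 11.3%, and with TMM factors 31.6% against 15.4%. Nfkbid, of an atypical nuclear IkB like that of Nfkbiz, had 4110 ± 976 normalised reads in WT and 19850 ± 3682 in KO (SD, n = 3 each), 2.28 higher on the log2 scale (limma, SE 0.16, adjusted p = 2.95e-06). Zc3h12a, of a ribonuclease that degrades cytokine messages, went from 1832 ± 258 to 6721 ± 2333, with KO B at 9410 against 5226 and 5528 in KO A and KO C. Tnip1, whose protein binds A20, went from 1021 ± 40.3 to 1433 ± 45.5.

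Of 32 known target genes 31 were tested, and 24 of these were higher and 1 lower (80.6% called, against 34.6% of all tested genes; median 1.55, and 1.69 with TMM factors). The gene called lower was Bcl2l1, of an inhibitor of cell death, at -0.45, named after its value was seen. The list shares genes such as Birc3 and Cd40 with the lists above. Ptgs2, the inducible cyclooxygenase gene, had 240, 241 and 151 normalised reads in WT and 7349, 7966 and 6986 in KO, in the order A, B and C. Il1b, the interleukin 1 beta gene, had 1132, 919 and 872 normalised reads in WT and 10535, 19092 and 14094 in KO. Both stood far above every WT library, and both were highest in KO B. Cxcl10, which interferon also induces, was 12.5-fold higher.

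**Figure D5:**
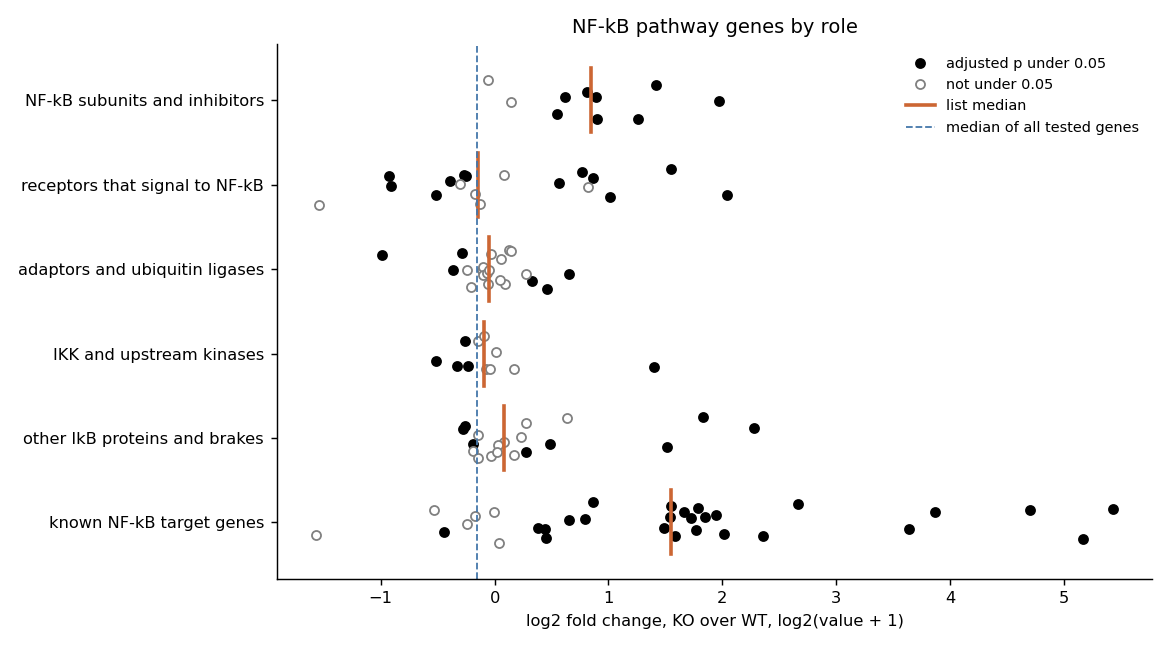
Log2 fold change (KO over WT, log2(value + 1) scale) of each tested gene, by role in the pathway; filled points have an adjusted p under 0.05, orange bars are list medians and the dashed line is the median of all tested genes (-0.15). The members and the target genes lie to the right (medians 0.85 and 1.55), and adaptors and kinases lie around the line, with Map3k8 apart.

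The listed transcripts of the members were also searched for short motifs, on the transcript strand. ACTAAC or ACTAAT, the core letters that QKI binds, occurred in 4 of the 10, 1 time each in Rel, Rela, Relb and Nfkbiz, and in 41.1% of the 21088 tested genes whose transcript sequence has 300 bases or more. TATTTAT, a core of AU-rich elements that mark short-lived messages, occurred 2 times each in Rel, Nfkbia and Tnfaip3, and in 28.1% of those genes. Longer transcripts hold more matches by length alone. A match is again a description of letters and not of binding.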

How the data were processed

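Members and gene lists were chosen with earlier results of these data known. The submitters' processing notes name DESeq2 1.26.0, HOMER 4.11.1, STAR 2.7.1a and Trimmomatic 0.39, and the build mm10/GRCm38, with no order or parameters given. The deposited signal is a read count per gene that the authors scaled to sums of 34360040 to 34360054 per library; it is not a raw count. Divided by the worth of 1 read, 100% of the nonzero values in each column came within 0.1 of a whole number, so the reads were recovered. A count of 0 allows up to 3 reads, 1.34 to 1.81 on the deposited scale (counting error only). The authors' deposited table also gives a log2 fold change, a p-value and an adjusted p-value of their own comparison.

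The design had edgeR for raw counts and limma for normalised values; the latter applied. Of rows with a repeated symbol the one with the highest mean was kept (117 left out). Genes with a mean above 1 were compared on log2(value + 1), KO against WT, by limma 3.58.1 with a trended prior in R 4.3.3. Adjustment was by Benjamini-Hochberg over all of them, with calls at 0.05. On that scale the change of a low gene is understated; a value written as a fold is the ratio of the group means. The columns Control and Treatment were taken as WT and KO from the group names. Their letters match no number in the labels; over 11588 genes, deviations from the group mean correlated at 0.61, 0.20 and 0.30 between groups for A, B and C. Since each was above 0.1, the letters were taken to pair libraries, on that check alone. No 2 libraries of a group were alike within sampling noise (the smallest chi-square per gene was 27.8). Alternatives were TMM factors, a filter at the median level or none, pseudocounts of 0.1 and 5, edgeR 4.0.16 and DESeq2 1.42.0 on the recovered reads, each library left out, a letter block and an adjusted p of 0.01. Leaving out both WT C and KO B, and TMM factors with the letter block, were further alternatives not planned beforehand. Genes named are the members, Qk and Cx3cr1, the 3 with the smallest p in each pathway list, and the 3 most like the member with the largest change.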

Additional observations from a re-analysis of the deposited data

How the results depend on the processing

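No member changed direction while called, and 154 of the 170 member values over 17 alternatives kept their side of the threshold. Nfkb2, Relb, Nfkbia, Nfkbib, Nfkbiz and Tnfaip3 were called under all 17. Nfkb1 passed at 0.28 with TMM factors on the deposited values, with edgeR on the recovered reads (TMM or RLE factors) and with DESeq2. It also passed at 0.28 with TMM factors and the block together, an alternative not planned beforehand. With the replicate block by column letter alone Nfkb1 passed at 0.14; the block changed no other member's call. Rel did not pass with a pseudocount of 0.1 (0.62), with DESeq2 (0.82) or without both WT C and KO B (0.22), and Nfkbie did not pass without both (0.27). With each library left out in turn Rel ran from 0.31 to 0.82 and Nfkbie from 0.29 to 0.71, and members called from 6 to 8. At an adjusted p of 0.01, 4710 genes and 6 members were called in place of 7781 and 8. Called kinases and their partners numbered 2 with TMM factors in place of 5, and 3 to 4 with single libraries left out. The cause of these changes was not tested. All 56 alternative values of the 8 ratios moved by less than the larger of the WT and KO SDs on the log2 scale. Leaving out a single library of 3 cannot move a group mean that far, so this count is no test of stability. For Tnfaip3 to Nfkbia the log2 difference of 0.15 was 0.01 without KO B and 0.23 without KO A. For Nfkbib to Nfkbia that of -0.37 was -0.24 without KO A and -0.54 without KO B. With 3 libraries a group, the change of Rela, -0.06 and with TMM factors 0.08, lies within the shift between scalings. The 0.14 of Nfkb1 at the deposited scaling is of the size of that shift. Over the 17 alternatives Nfkb1 ran from 0.13 to 0.28 and was called under 6, the unplanned TMM factors with the block among them.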
